A study of Mus musculus with 6 samples.

Results

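The genes described here encode the aminoacyl-tRNA synthetases, the enzymes that join each amino acid to its tRNA. A list of 36 synthetase genes was searched for in the array table, 20 of them cytosolic and 16, with symbols ending in 2, mitochondrial. A gene counted as a member when a row of the table carried its symbol and no other. Of the 36 genes, 30 had such a row, 15 in each class, among 16700 rows in all. Aars lay on a row shared with Exosc6, the gene listed as Mars had a row under its newer symbol Mars1, and Cars2, Dars, Eprs and Sars had no named row.

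The cells were C2C12 myotubes, the fused muscle cells that form from a mouse myoblast line in culture. The ATF4 group (3 arrays) had been infected with an adenovirus for eGFP and FLAG-tagged ATF4, and the control group (3 arrays) with one for eGFP and a FLAG-tagged ATF4 that lacks its bZIP domain and is transcriptionally inactive. Both groups therefore carried a virus, eGFP and ATF4 sequence, and no uninfected myotubes were analysed here. Total RNA was taken 48 h after infection, and 50 ng of it was amplified for 1 Affymetrix exon array per sample. The samples of each group are numbered 1 to 3, and the labels name no separate cultures, so a p-value covers only the spread among these arrays, part or all of which may be technical.

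In animal cells the cytosol and the mitochondrion each charge their own set of tRNAs, and most amino acids have a separate nuclear gene for each place. Gars (glycine) and Kars (lysine) are exceptions, since 1 gene makes both forms of the enzyme; they stand in the cytosolic class here because of their symbols. Mitochondrial glutaminyl-tRNA is made indirectly, by charging with glutamate (Ears2) and amidation. ATF4 is the transcription factor of the integrated stress response, which follows amino acid shortage, and several cytosolic synthetase genes are known targets of it. ATF4 binds, together with C/EBP proteins, a composite element with the core TGATGNAA, where N is any base.

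That core was searched for on both strands in RefSeq promoter windows of 300 bases, from 250 before to 50 after each gene's start, in build GRCm38.p6. The windows matched 27 of the 36 listed genes (13 cytosolic and 14 mitochondrial, 28 windows). The core stood in 5 of 13 cytosolic windows and in 0 of 15 mitochondrial windows, against 1304 of 32851 windows of all genes (3.97%). The 5 genes were Aars, Gars, Iars, Tars and Yars. The form with all 8 letters fixed, TGATGCAA, a subset of that core, stood in 4 cytosolic windows (Aars, Iars, Tars and Yars) and in 294 of all windows (0.895%). No window was found for Cars, Hars, Hars2, Lars, Nars, Pars2, Rars, Vars or Wars. A match describes these letters only and shows no binding.

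The matching stretches are shown because these genes can be read against their array values below. Each runs 5′ to 3′ along the gene's own strand, with the core in capitals. In Aars, Gars, Tars and Iars the core was on the opposite strand, so the capitals there show its reverse complement, TTNCATCA. Positions count from the start of the gene, with negative numbers before it. In Aars (chr8:111033692-111033791, plus strand, from -150 to -51) the core ran from -112 to -105, and a second one, not shown, from 10 to 17. In Gars (chr6:55037901-55038000, plus strand, from -100 to -1) it ran from -30 to -23, and in Tars (chr15:11399659-11399758, minus strand, from -100 to -1) from -15 to -8. In Yars (chr4:129189895-129189924, plus strand) it ran from 4 to 11 and in Iars (chr13:49682126-49682155, plus strand) from 8 to 15, and 30 bases of each are given. The last lines give the same stretch, from -100 to -1, of 2 genes whose windows did not hold the core: Kars (chr8:112011355-112011454, minus strand) and Rars2 (chr4:34614857-34614956, plus strand).
Aars: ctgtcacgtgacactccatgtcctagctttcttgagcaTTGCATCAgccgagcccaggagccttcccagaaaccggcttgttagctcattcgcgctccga
Gars: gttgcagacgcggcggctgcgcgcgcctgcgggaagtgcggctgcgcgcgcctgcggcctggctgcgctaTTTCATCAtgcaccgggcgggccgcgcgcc
Tars: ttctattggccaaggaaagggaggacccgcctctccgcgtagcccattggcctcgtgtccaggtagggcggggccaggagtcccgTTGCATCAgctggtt
Yars: acgagctcagcTGATGCAAcccgacgggac
Iars: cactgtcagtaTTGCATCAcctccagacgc
Kars: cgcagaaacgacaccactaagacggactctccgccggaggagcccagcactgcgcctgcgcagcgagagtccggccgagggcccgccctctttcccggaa
Rars2: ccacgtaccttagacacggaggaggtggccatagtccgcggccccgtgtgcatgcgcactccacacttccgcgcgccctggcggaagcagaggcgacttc

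The arrays of number 3 stood apart. The interquartile range of their values was 1.80 on ATF4 array 3 and 1.63 on control array 3, against 2.19 to 2.28 on the other 4 arrays. The row for Atf4 itself, whose sequence both viruses carry, had 8.82 ± 0.30 in ATF4 arrays and 8.86 ± 0.47 in control arrays (log2, mean ± SD, n = 3 each), so it does not check the labels. Myotube markers were present in both groups: over the 8 of 12 listed with a row of their own, the mean value per array was 8.03 to 8.54 in ATF4 arrays and 8.18 to 8.77 in control arrays. The mean change was below 0 for all 8 of them (median -0.20, from -0.53 to -0.02), as it was for 9738 of the 16700 rows. By the blocked test described next, the fusion gene Mymk passed as lower (limma adjusted p = 0.0392), as did 1.16% of all rows. The limma count at an unadjusted p below 0.05 was 4 of 8 (Mymk, Ckm, Acta1 and Tnni1), against 0 without the block. With the block, 1575 of the 16700 rows were lower at such a p. For Ckm, the muscle creatine kinase, the groups did not overlap (6.70 to 6.82 in ATF4 arrays, against 6.92 to 7.18 in control arrays). Of the 13 markers of myoblasts, fibroblasts, adipocytes and leukocytes 0 passed either test, and at an unadjusted p below 0.05 the limma counts were 2 without and 5 with the block, where such rows, higher or lower, made up 5.26% and 17.7% of the table. The 2 were the myoblast repressor gene Msc, lower in ATF4 arrays (5.45 to 5.58, against 5.77 to 6.18 in control arrays), and the leukocyte gene Ptprc, higher (4.79 to 5.16, against 3.94 to 4.45). The block added the fibroblast gene Pdgfra (change 0.21), the adipocyte gene Adipoq (-0.35) and the leukocyte gene Cd68 (-0.35). Leukocyte markers thus did not move together, since Ptprc was higher, Cd68 lower and Adgre1 changed by -0.004. The mean value of the 3 leukocyte markers per array was 4.83 to 5.02 in ATF4 arrays and 4.62 to 5.14 in control arrays. The part of these markers in the results was not tested.

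Across all rows 2 limma tests of ATF4 minus control were made, one without and one with the sample number as a block. Deviations from the group means correlated across rows by 0.578 to 0.782 between the ATF4 and the control array of 1 number. The numbers were therefore taken as pairs, and blocked values stand beside the others. The titles only number the samples, and the pairing was read from the tested values, so matched cultures are not shown. A row passed when its p, adjusted over the 16700 rows, was below 0.05. Higher rows made up 0.569% of the table without the block and 2.4% with it, and lower rows 0.024% and 1.16%.

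Most cytosolic synthetase transcripts were higher in ATF4 myotubes. Without the block 0 of 15 passed, and with it 9 of 15 rose and none fell: Wars, Gars, Rars, Iars, Lars, Nars, Tars, Cars and Yars. Their changes ran from 0.64 to 1.25 on the log2 scale, or 1.56-fold to 2.38-fold. At an unadjusted p below 0.05 the limma counts of higher cytosolic rows were 9 without the block (3.1% of all rows) and 12 with it (8.29%). The median change of the class was 0.66, against -0.03 over all rows. In bulk RNA such as this, a change in the number of cells of a type and a change in RNA per cell cannot be told apart.

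**Figure D1:**
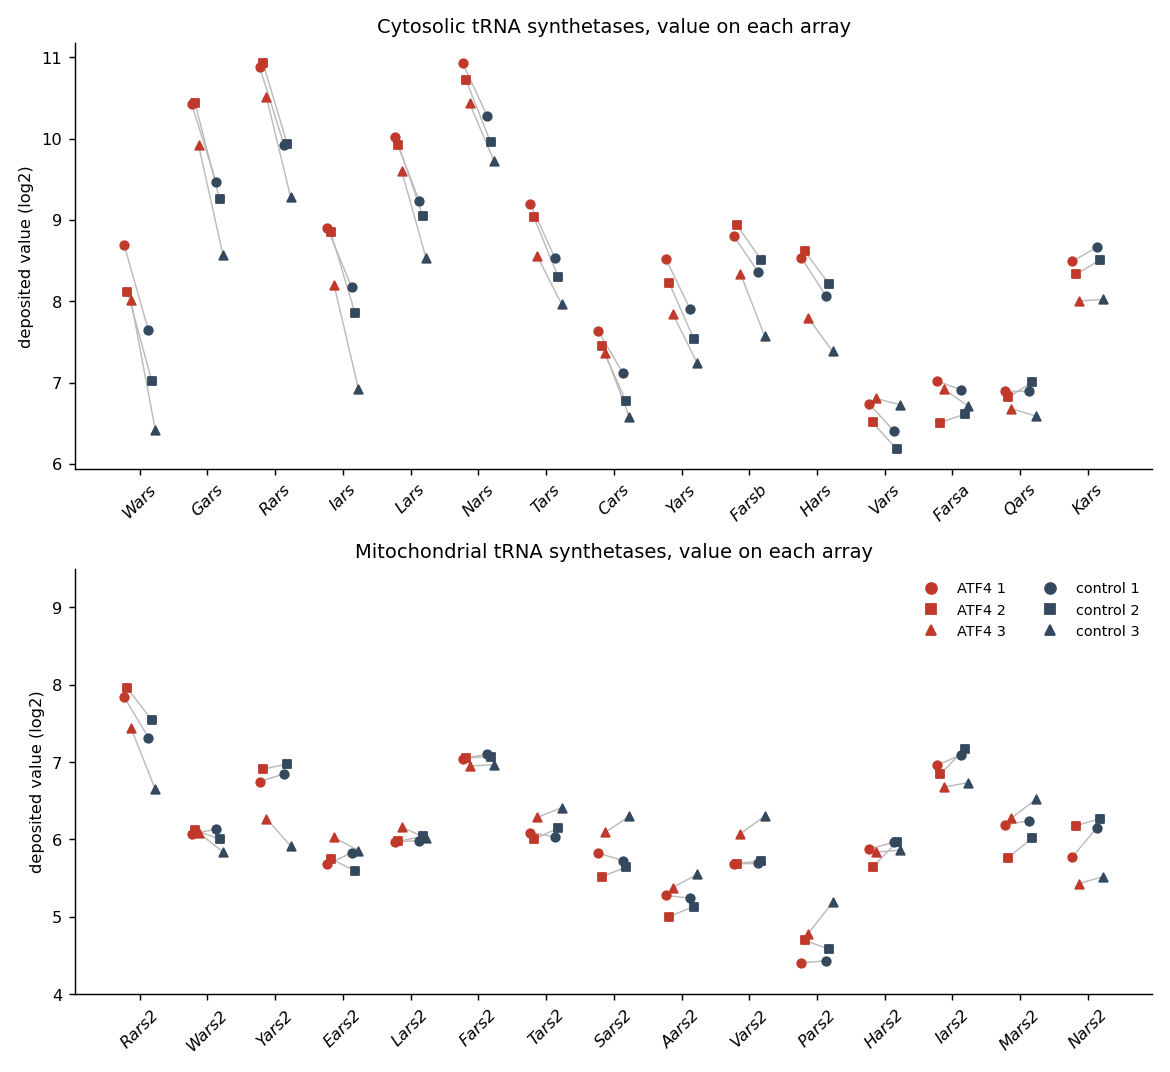
Deposited log2 value on each array for the 15 cytosolic (upper) and 15 mitochondrial (lower) synthetases, ordered by change, with ATF4 arrays left of control arrays and lines joining arrays of the same number. For 8 cytosolic genes, the first 8 of the upper panel, every ATF4 point lies above every control point. This is so for 0 of the mitochondrial genes and for 4.5% of all rows.

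Wars, which charges tryptophan and is also known as an interferon-induced gene in human cells, showed the largest change of the class. Its values were 8.70, 8.12 and 8.02 in ATF4 arrays 1 to 3 and 7.64, 7.02 and 6.42 in control arrays 1 to 3 (transcript cluster 6803598, the array's ID for the row). All ATF4 arrays lay above all control arrays. The change was 1.25 on the log2 scale, a 2.38-fold difference with an unblocked 95% interval of 1.49 to 3.79 (limma adjusted p = 0.155 unblocked and 0.0110 blocked). Such intervals are not adjusted for the number of rows.

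Gars, the glycine enzyme of both compartments, had 10.42, 10.43 and 9.92 in ATF4 arrays and 9.46, 9.25 and 8.57 in control arrays (transcript cluster 6946396). The lowest ATF4 array lay 0.46 above the highest control array. The difference was 2.24-fold, with an unblocked 95% interval of 1.51 to 3.32 (limma adjusted p = 0.101 unblocked and 0.00691 blocked). Rars, which charges arginine, had 10.89, 10.93 and 10.52 in ATF4 arrays and 9.93, 9.93 and 9.28 in control arrays (transcript cluster 6787283). Its gap of 0.59 between the groups was the widest among the synthetases. The difference was 2.10-fold, with an unblocked interval of 1.48 to 2.97 (limma adjusted p = 0.0859 unblocked and 0.00682 blocked).

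The enzymes for isoleucine and leucine, both parts of the multisynthetase complex that holds several cytosolic synthetases together, also rose with the block. Iars had 8.90, 8.85 and 8.20 in ATF4 arrays and 8.17, 7.86 and 6.92 in control arrays. Its groups were just apart, by 0.03, and the 2.00-fold difference had an unblocked interval of 1.23 to 3.26 (limma adjusted p = 0.40 unblocked and 0.0167 blocked). Lars had 10.02, 9.92 and 9.60 in ATF4 arrays and 9.23, 9.05 and 8.53 in control arrays. It was 1.88-fold higher in ATF4 arrays with no overlap between groups, with an unblocked interval of 1.33 to 2.65 (limma adjusted p = 0.164 unblocked and 0.0107 blocked).

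The 4 remaining genes that passed with the block changed by amounts close to each other. Nars, the asparagine enzyme, had 10.93, 10.72 and 10.44 in ATF4 arrays and 10.28, 9.96 and 9.73 in control arrays, a change of 0.70. Tars, the threonine enzyme, had 9.20, 9.03 and 8.56 in ATF4 arrays and 8.53, 8.30 and 7.96 in control arrays, a change of 0.67. Both were free of overlap, Nars by 0.15 and Tars by 0.03. Cars, the cysteine enzyme, had 7.64, 7.44 and 7.37 in ATF4 arrays and 7.12, 6.77 and 6.58 in control arrays, a change of 0.66. Yars, the tyrosine enzyme, had 8.52, 8.22 and 7.85 in ATF4 arrays and 7.90, 7.54 and 7.24 in control arrays, a change of 0.64. Cars had no overlap, whereas ATF4 array 3 of Yars lay 0.05 below control array 1. Without the block the limma adjusted p of these 4 genes was 0.332 for Nars, 0.490 for Tars, 0.328 for Cars and 0.618 for Yars, and with it 0.0147, 0.0171, 0.0225 and 0.0177 in the same order.

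The rows for the listed genes Mars and Aars, kept out of the counts, were close to those 4. Mars1, the methionine enzyme, had 8.59, 8.30 and 8.10 in ATF4 arrays and 8.02, 7.51 and 7.41 in control arrays, a change of 0.68 (limma adjusted p = 0.411 unblocked and 0.0178 blocked). The row shared by Aars, the alanine enzyme, and Exosc6, a subunit of the RNA exosome, had 8.57, 8.18 and 8.15 in ATF4 arrays and 8.04, 7.51 and 7.41 in control arrays. Its change of 0.65 cannot be assigned to 1 of the 2 genes (limma adjusted p = 0.487 unblocked and 0.0203 blocked).

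The other 6 cytosolic genes did not pass either test, with changes of -0.12 to 0.55. The phenylalanine enzyme is built from 2 kinds of subunit. Farsb, the beta subunit, had 8.81, 8.93 and 8.34 in ATF4 arrays and 8.36, 8.51 and 7.57 in control arrays, a change of 0.55 (limma adjusted p = 1 unblocked and 0.0534 blocked). Farsa, the alpha subunit, had 7.02, 6.51 and 6.92 in ATF4 arrays and 6.91, 6.61 and 6.71 in control arrays, a change of 0.07 (limma adjusted p = 1 unblocked and 0.758 blocked). The difference between these subunits was not tested. Hars, the histidine enzyme, had a change of 0.43 (limma adjusted p = 0.0519 with the block) and Vars, the valine enzyme, one of 0.25 (0.248).

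Kars and Qars had the lowest changes of the class. Kars, the lysine enzyme, had 8.49, 8.33 and 8.004 in ATF4 arrays and 8.66, 8.51 and 8.02 in control arrays, so each ATF4 array was below the control array of its number. The change was -0.12, and its 95% interval with the block was -0.33 to 0.09 (limma adjusted p = 0.521 with the block). Qars, the glutamine enzyme, had 6.89, 6.82 and 6.68 in ATF4 arrays and 6.89, 7.004 and 6.59 in control arrays. Its groups overlapped, and its change of -0.03 had an interval of -0.26 to 0.20 with the block (limma adjusted p = 0.902).

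Read against the promoter stretches, the 4 cytosolic genes with the core in their window and a row of their own (Gars, Iars, Tars and Yars) changed by 0.64 to 1.16. All 4 passed with the block, as did 2.4% of all rows in the higher direction. The 4 cytosolic genes with a window without the core and a row of their own (Farsa, Farsb, Kars and Qars) changed by -0.12 to 0.55, and 0 passed. Of these, Farsb lay just over the threshold (blocked limma adjusted p = 0.0534) and passed in 4 of the 8 blocked fits run. Wars, Rars, Lars, Nars and Cars also passed with the block, and for them no window was found. Mars1, whose window did not hold the core either, passed with the block. Of 13 mitochondrial genes with such a window and their own row, 1 passed with the block, Rars2. Of the stretches printed above without the core, that of Kars thus comes from a gene that did not pass and that of Rars2 from one that did. These counts are a description of few genes.

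**Figure D2:**
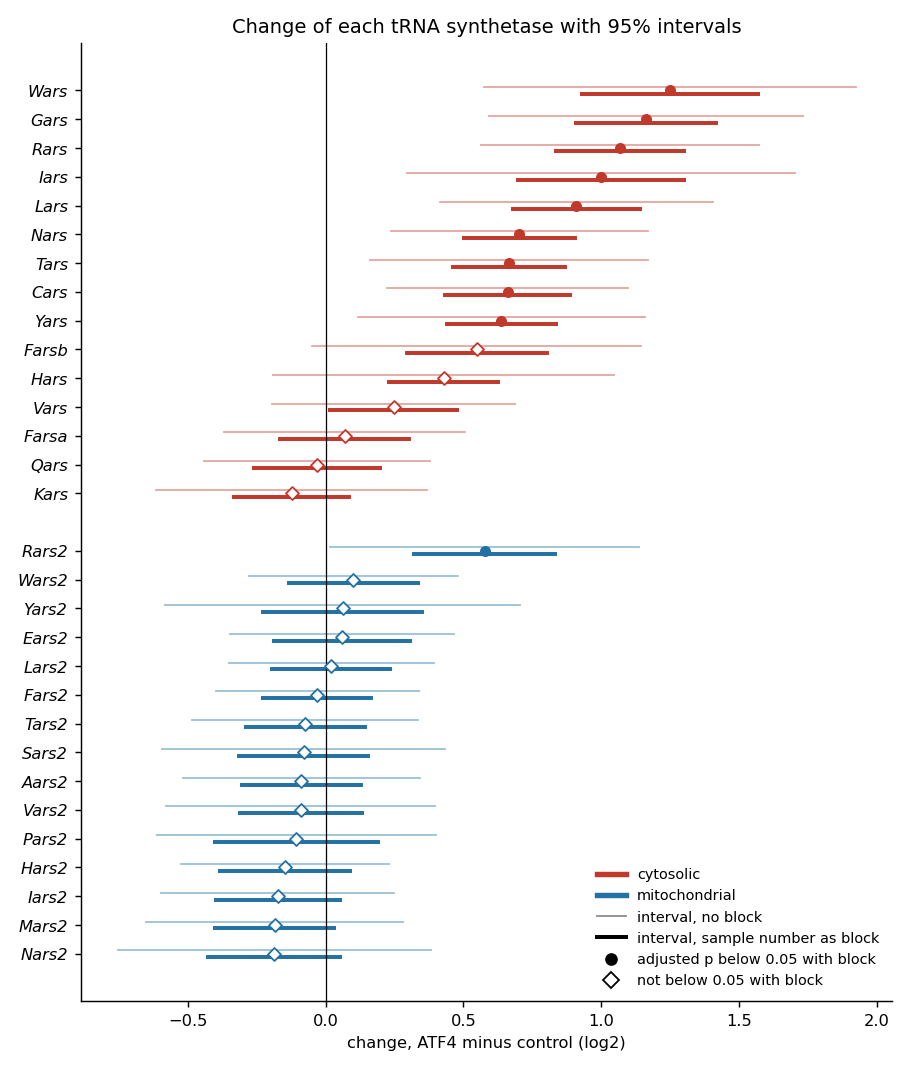
Change (ATF4 minus control, log2) of each of the 30 synthetases with its 95% limma interval, the thin line without and the thick line with the sample number as a block. Filled points, 9 cytosolic genes and Rars2, had an adjusted p below 0.05 with the block.

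The mitochondrial synthetases as a class stayed close to the rest of the table in median change. Their median change was -0.08, against -0.03 over all rows, with 5 of 15 above 0 (41.7% of all rows were). In all 3 numbered pairs 6 of the 15 were lower in the ATF4 array, as were 4092 of the 16700 rows. Without the block 0 of 15 passed, and with it 1 was higher and none lower. With the block higher rows that passed made up 2.4% of the table and lower ones 1.16%. At an unadjusted p below 0.05 the limma count of higher mitochondrial rows was 1 without the block (3.1% of all rows) and 1 with it (8.29%). Leaving that gene aside, the other 14 had changes of -0.19 to 0.10, with limma adjusted p of 0.348 to 0.933 with the block.

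The gene that passed with the block was Rars2, the mitochondrial arginine enzyme. Among rows of any gene with a mean value between 7 and 8, as that of Rars2, 5.07% passed as higher with the block. Rars2 had 7.84, 7.95 and 7.44 in ATF4 arrays and 7.32, 7.54 and 6.65 in control arrays (transcript cluster 6912594). Its groups overlapped by 0.10, because ATF4 array 3 was below control array 2, but each ATF4 array was above the control array of its number. The change was 0.58, or 1.49-fold (limma adjusted p = 0.892 unblocked and 0.0471 blocked). With the block this call held in 4 of the 8 blocked fits run, and the limma adjusted p reached 0.114 in the others.

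The lowest changes among mitochondrial genes were those of Nars2 and Mars2. Nars2, for asparagine, had 5.77, 6.18 and 5.43 in ATF4 arrays and 6.15, 6.27 and 5.52 in control arrays, a change of -0.19. Mars2, for methionine, had 6.18, 5.76 and 6.27 in ATF4 arrays and 6.24, 6.02 and 6.52 in control arrays, a change of -0.19 as well (-0.185). In both genes every ATF4 array was below its numbered control array, while the groups overlapped widely. Their 95% intervals with the block were -0.43 to 0.05 for Nars2 and -0.40 to 0.03 for Mars2. Iars2, for isoleucine, had 6.96, 6.84 and 6.67 in ATF4 arrays and 7.10, 7.17 and 6.74 in control arrays, a change of -0.17.

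Mitochondrial genes with changes near 0 included those for tryptophan and leucine. Wars2 had 6.07, 6.12 and 6.09 in ATF4 arrays and 6.13, 6.01 and 5.84 in control arrays, a change of 0.10. Lars2 had 5.97, 5.98 and 6.16 in ATF4 arrays and 5.98, 6.04 and 6.02 in control arrays, a change of 0.02. Groups overlapped in both, and their 95% intervals with the block reached up to 0.33 for Wars2 and 0.24 for Lars2. The rest were Yars2 (tyrosine) at 0.06, Ears2 (glutamate) at 0.06, Fars2 (phenylalanine) at -0.03 and Tars2 (threonine) at -0.07. Below them came Sars2 (serine) at -0.08, Aars2 (alanine) at -0.09, Vars2 (valine) at -0.09, Pars2 (proline) at -0.11 and Hars2 (histidine) at -0.15, all as log2 changes.

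The contrast of both classes was of similar size in each numbered pair of arrays. The cytosolic median was 0.62, 0.68 and 0.71 in numbers 1, 2 and 3, and the mitochondrial median -0.06, -0.07 and -0.06. The cytosolic minus mitochondrial difference of medians was therefore 0.68, 0.75 and 0.77 by number, and 0.74 over all arrays. Within a numbered pair, 12 of 15 cytosolic genes were higher in ATF4 arrays in all 3 pairs and 1 of 15 mitochondrial genes was, against 17% of all rows. That share moved with brightness, from 9.99% of rows with a mean value between 5 and 6 to 20.9% between 6 and 7, 29.0% between 7 and 8 and 31.5% between 8 and 9. Groups did not overlap, with ATF4 higher, for 8 of 15 cytosolic and 0 of 15 mitochondrial genes, against 4.5% of all rows (3.26%, 6.13%, 7.31% and 6.98% in the same steps). Higher rows that passed with the block made up 1.29%, 3.04%, 5.07% and 5.13% in these steps. These shares and medians carry no test, since the genes were listed with earlier results of these data known.

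Between arrays of 1 group the cytosolic class differed in level. As a median deviation from each gene's mean over the 6 arrays, the class stood at 0.58, 0.44 and 0.10 in ATF4 arrays 1 to 3 and at -0.03, -0.31 and -0.64 in control arrays 1 to 3. Number 3 was the lowest in each group for 13 of the 15 genes, and not for Farsa and Vars. The mitochondrial class stood between -0.05 and 0.10 on all 6 arrays. Spread within groups enters the limma test without the block, for any row. The median standard error of a cytosolic change was 0.23 without and 0.09 with the block. For mitochondrial changes it was 0.19 and 0.09, and over all rows 0.21 and 0.09, so the fall was not particular to the cytosolic class.

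Where both enzymes of an amino acid had a row, they could be set side by side, with 11 such pairs for 10 amino acids. The cytosolic change was the larger one in 11 of 11 pairs on average, and in 10 of them also within each of the 3 sample numbers. The difference was widest for isoleucine, with 0.87, 1.32 and 1.34 by number (Iars minus Iars2; mean 1.17 ± 0.27, SD, n = 3). For tryptophan it was 1.11, 0.98 and 1.35 (mean 1.15 ± 0.19), and for leucine 0.80, 0.93 and 0.93 (mean 0.89 ± 0.07). These were the widest differences of the 11 pairs, so their size beside their spread over the numbers is a description and no test.

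**Figure D3:**
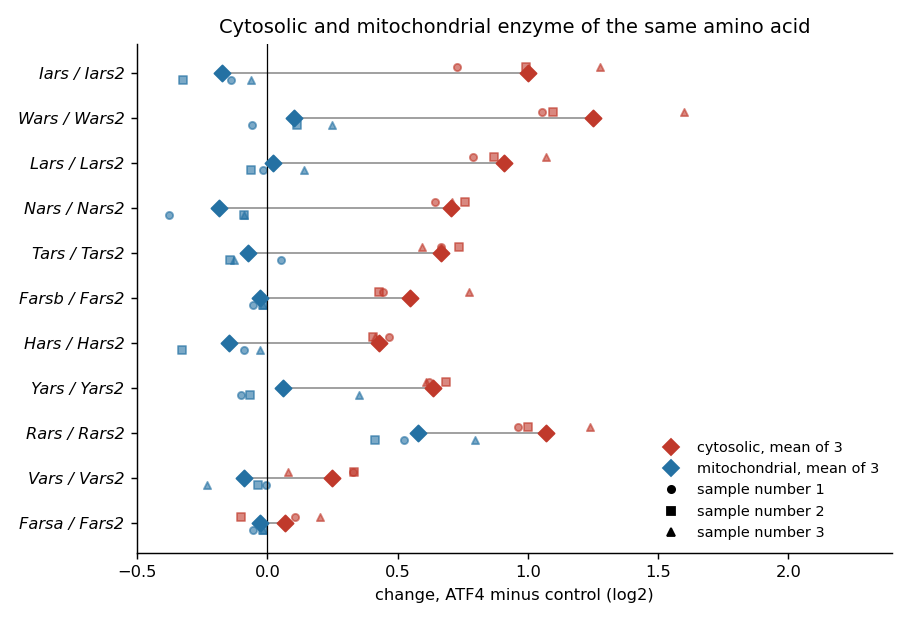
Change (ATF4 minus control, log2) of the cytosolic and the mitochondrial enzyme of the same amino acid, 11 pairs ordered by the difference; diamonds are means and small symbols the 3 sample numbers. The cytosolic diamond lies to the right in all 11 pairs, and both diamonds lie well above 0 in 1 of them, Rars and Rars2.

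For asparagine the difference was 0.89 ± 0.12, for threonine 0.74 ± 0.13 and for tyrosine 0.58 ± 0.28 (mean ± SD, n = 3). For arginine both enzymes rose with the block, by 1.07 for Rars and 0.58 for Rars2, and the cytosolic one exceeded the mitochondrial one by 0.49 ± 0.09. Hars and Hars2, which lie next to each other in the RefSeq gene table, had changes of 0.43 and -0.15, a difference of 0.58 ± 0.15. Valine gave 0.34 ± 0.03. The pair of Farsa with Fars2 gave 0.10 ± 0.16, less than its spread, whereas Farsb with Fars2 gave 0.58 ± 0.19.

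The cytosolic genes had brighter rows than the mitochondrial ones, and brightness moved with the comparison in number 3. Mean values over the 6 arrays ran from 6.56 to 10.34 for cytosolic rows and from 4.68 to 7.46 for mitochondrial rows; array values of different genes do not compare their mRNA amounts. Among the 1131 rows of any gene between 8 and 9, the median change was -0.02 in number 1, -0.03 in number 2 and 0.18 in number 3. Among the 4575 rows between 5 and 6 it was -0.03, -0.03 and -0.12. The cytosolic medians by number were 0.62, 0.68 and 0.71.

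Within the cytosolic class the change went up with brightness (Pearson r = 0.55, Spearman rho = 0.54, across 15 genes that share the same arrays, as a description). Between values of 6 and 7 both classes had rows, and they changed by -0.03 to 0.25 for the 3 cytosolic genes (Farsa, Qars and Vars) and by -0.19 to 0.10 for 6 mitochondrial ones. Between 7 and 8 the changes were 0.64 to 1.25 for the 3 cytosolic genes (Cars, Wars and Yars), and 0.58 and -0.03 for the mitochondrial genes Rars2 and Fars2. Kars, with a mean value of 8.34, lay among the brighter rows and had a change of -0.12. The part of brightness in the contrast was not tested further.

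**Figure D4:**
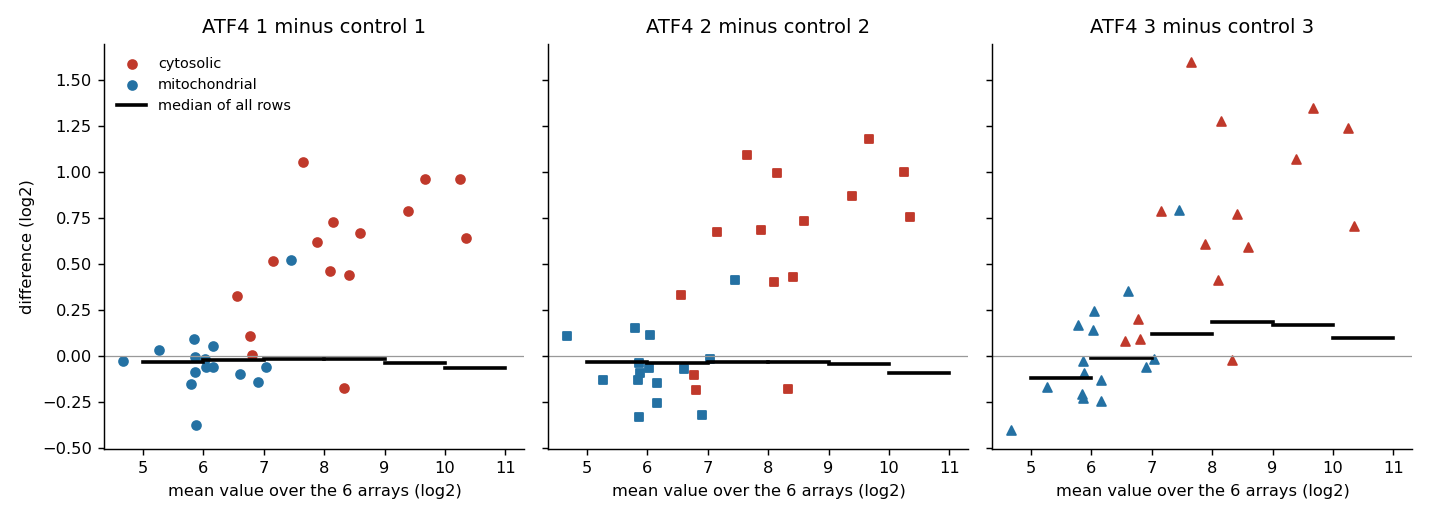
Difference (log2) between the ATF4 and the control array of each sample number against the mean value of the row over the 6 arrays, for cytosolic and mitochondrial synthetases, with black lines for the median of all rows in steps of 1. The black lines lie near 0 in numbers 1 and 2 and reach 0.18 in number 3, and the cytosolic medians are 0.62, 0.68 and 0.71.

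Inside the cytosolic class, neither the multisynthetase complex nor the catalytic class divided the genes that passed from the others. Of the 5 complex members with a row of their own, 3 passed with the block: Iars, Lars and Rars. Kars and Qars did not, and the median change of the 5 was 0.91. Of the 10 outside the complex, 6 passed, with a median of 0.65. Synthetases fall into 2 structurally unrelated catalytic classes: of the 8 cytosolic class I genes 6 passed with the block (median 0.79), and of the 7 of class II 3 passed (Gars, Nars and Tars; median 0.55). Over the whole table, higher rows that passed with the block made up 2.4%. Mars1 and the shared Aars row stand outside these counts. Differences between these subgroups were not tested.

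Of genes that work beside the synthetases, 12 with their own row were analysed, and 0 passed without and 0 with the block. With 2.4% of all rows higher and 1.16% lower with the block, few or none of 12 genes would be called at the table's own rate. At an unadjusted p below 0.05 the limma counts were 0 and 1, where 5.26% and 17.7% of all rows had such a p. Their median change was -0.01, with a range of -0.17 to 0.23. The non-enzymatic scaffolds of the multisynthetase complex were among them: Aimp1 had 9.19, 9.17 and 8.81 in ATF4 arrays and 9.09, 9.09 and 8.39 in control arrays, a change of 0.20. Aimp2 changed by -0.05 and Eef1e1 by -0.06 (blocked limma adjusted p = 0.863 for Aimp2 and 0.823 for Eef1e1). The amidation genes Qrsl1, Gatb and Gatc, which complete mitochondrial glutaminyl-tRNA, had changes of 0.04, -0.04 and -0.10.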

How the data were processed

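Expression was measured on 6 arrays, 3 per group. The authors deposited 1 value per transcript cluster and array, read here as log2 from its range (1.22 to 12.44), since the scale is not stated. Per the submitters' processing notes, GCOS, RMA and mm9 were used; their versions and settings are not stated there. Depth has no counterpart on arrays: their number limits precision, and no detection calls were used.

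Rows were named from the platform annotation (14988 with 1 symbol, 1018 with several, 694 with none). Changes are ATF4 minus control from limma 3.58.1 in R 4.3.3 (lmFit, eBayes, two-sided, no filter), Benjamini-Hochberg adjusted over 16700 rows at 0.05, with 4 residual and 6.30 prior degrees of freedom, or 2 and 3.77 with the sample number as a block. An exact permutation test of 3 against 3 arrays, which leaves the pairs aside, cannot go below 0.1. The numbers come from the sample titles. Deviations from group means correlated by 0.578, 0.636 and 0.782 for same-numbered arrays, over the limit of 0.1, and by -0.666 to 0.221 otherwise, so the numbers were read as pairs. The fits were tested on simulated data.

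Members and lists were chosen with earlier results of these data known. Per-array values are given for members past 0.05 in either fit, mitochondrial partners of the 6 largest cytosolic rises, the 2 lowest changes per class, Gars, Kars, Wars and Mars1; Farsa, Farsb and the Aars row were added after their values were seen. 1 partner gene is not reported here. Promoters are from RefSeq.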

Additional observations from a re-analysis of the deposited data

How the results depend on the processing

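Alternatives were other scalings, filters, variance models and array subsets; leaving out both arrays of a number without the block, and adding the Mars1 or the shared Aars row, were chosen after seeing the data. The 9 cytosolic genes that passed with the replicate block were higher under all 26 alternatives. Several of these, such as adding the block or changing the variance model, leave the change itself as it was and could not turn its sign. The calls did move: these genes passed in 6 (Yars) to 14 (Gars) of the 26. The cause of the moves below was not tested.

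Rows called were 99 without and 594 with the block, 57 with median centring, 151 with cyclic loess, 561 with array weights and 41 at 0.01; 38 to 243 were called with 1 array left out (243 without control array 3). With the block they were 565 under quantile normalization, 612 under centring, 500 under scaling to one interquartile range, 616 under cyclic loess, and 354, 630 and 261 without number 1, 2 or 3 (8, 41 and 157 without the block). Of called rows, 96.0% were higher without and 67.3% with the block.

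Cytosolic genes called were 0 without and 9 with the block. Without it they were 3 under quantile normalization and under cyclic loess (Gars, Lars and Rars), 1 under scaling (Gars), 7 with array weights, and 0 to 2 with arrays left out (Gars and Rars without ATF4 array 3 or both number 3 arrays). With it they were 10 under quantile normalization and cyclic loess, 11 under centring and 9 under scaling. With the block they were 7 without number 1, 10 without number 2 and 4 without number 3 (Gars, Lars, Rars and Wars). Mitochondrial genes called with the block were 1 (Rars2), also under centring, cyclic loess and without number 2, and 0 otherwise.

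The cytosolic median change ran from 0.51 to 0.81 with 1 array left out. The mitochondrial one ran from -0.12 to 0.02, its sign turning without control array 3 (0.024), was -0.019 with array weights and -0.023 as a mean. The class difference ran from 0.49 to 0.93.

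Changes near 0 turned sign in genes that never passed. Under centring, with or without the block, Qars had 0.012 and Fars2 0.013. Array weights gave Ears2 -0.019, Lars2 -0.014, Pars2 0.022, Sars2 0.018 and Yars2 -0.088. With or without the block, Qars had 0.047 without number 2, and without number 3 Lars2 had -0.040, Pars2 0.043 and Yars2 -0.083. With 1 array left out the ranges were -0.032 to 0.22 for Farsa, -0.31 to 0.013 for Kars, -0.15 to 0.057 for Qars, -0.18 to 0.033 for Aars2, -0.045 to 0.13 for Ears2 and -0.071 to 0.0035 for Fars2. They were -0.042 to 0.053 for Lars2, -0.26 to 0.12 for Pars2, -0.22 to 0.12 for Sars2, -0.15 to 0.034 for Tars2, -0.22 to 0.11 for Vars2 and -0.27 to 0.26 for Yars2.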
